A study of Mus musculus with 12 samples.

Results

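The nuclear genes of oxidative phosphorylation were followed in B16-F10 cells, a mouse melanoma line. Members were taken by gene symbol: all symbols beginning with Nduf, Uqcr, Atp5 or Cox4 to Cox8, the genes Sdha to Sdhd, and *Cyc1* and *Cycs*. This gave 94 of the 23022 listed genes, of which 36 encode complex I subunits, 6 complex I assembly factors, 4 complex II, 9 complex III, 20 complex IV, 17 complex V and 1 cytochrome c. The last is the pseudogene *Atp5l-ps1*. By role, *Ndufa4*, *Ndufa4l2* and *Cox7a2l* were placed with complex IV and *Cyc1* with complex III. The symbol rule also put *Atp5s* and *Atp5sl* among the complex V genes, although neither encodes a subunit of the enzyme.

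RNA-seq had been run on 12 libraries, 3 in each of 4 conditions: cells with a non-targeting control guide (NTC; the sample labels write no template control) and cells in which both *Mbnl1* and *Mbnl2* were targeted (*Mbnl* DKO), untreated or given IFNγ. MBNL proteins bind RNA and regulate splicing. Both genotypes came from 1 Cas9-expressing B16-F10 clone that received guide RNAs by lentivirus and was selected with puromycin, and the study describes the knockout population as polyclonal with some MBNL protein left. IFNγ was given at 1 ng/mL for 24 hours. The labels give a replicate number but no separate culture for each library, so p-values measure the spread between these libraries, which may be technical.

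Oxidative phosphorylation takes place in the inner mitochondrial membrane. Complex I takes electrons from NADH and complex II takes them from succinate; both pass them through ubiquinone to complex III, then through cytochrome c to complex IV, which reduces oxygen. Complexes I, III and IV pump protons as they do so, and complex V, the ATP synthase, uses the gradient to make ATP. The core of complexes I, III, IV and V is encoded partly in mitochondrial DNA, so the nuclear genes described here supply the remaining subunits, all of complex II, and cytochrome c.

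The deposited values are TPM, which express each gene per unit length as a share of the RNA in its library, and they keep no read depth. Over the listed genes, a DKO library summed to 805782 to 827191 TPM and an NTC library to 844185 to 874612 TPM. Replicate 2 of IFNγ-treated DKO cells had the lowest total and the lowest share of RNA from mitochondrial DNA, 6.86% of the listed TPM where every other library had at least 7.35%. *Mbnl1* stood at 55.6 to 57 TPM in untreated NTC and 41.1 to 44 TPM in untreated DKO libraries, and *Mbnl2* at 99.2 to 107 TPM and 87.2 to 90.2 TPM, so RNA of both targeted genes was lower but still present (log2 differences −0.41 and −0.20, adjusted p = 2.54e-05 and 0.00937). Of the melanocyte markers *Mlana*, *Pmel*, *Tyr*, *Tyrp1*, *Dct*, *Mitf* and *Sox10*, all 7 were expressed in every condition. Their sums were 16600 to 17600 TPM in untreated NTC, 18000 to 18600 TPM in treated NTC, 11100 to 11500 TPM in untreated DKO and 12300 to 12400 TPM in treated DKO libraries. Summed leukocyte markers never passed 6.83 TPM, with 3 of 7 at 0 throughout, and summed stromal and endothelial markers never passed 8.6 TPM, with 2 of 7 at 0. Of the low markers, *Cd68*, *Col1a1* and *Col1a2* were called higher in DKO cells with and without IFNγ, at no more than 6.49, 1.17 and 2.28 TPM. The melanocyte markers were called lower in DKO cells, 7 of 7 without and 6 of 7 with IFNγ, and the part of any of these markers in the results below was not tested.

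Testing was limited to genes that reached 1 TPM in 3 or more libraries, which kept 11663 genes and 87 of the 94 members. A gene was called when its Benjamini-Hochberg adjusted p-value in limma, over all tested genes, was under 0.05, and log2 differences refer to log2(TPM + 1). In bulk RNA, a change in the RNA per cell and a change in the makeup of the culture cannot be told apart.

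Promoters are shown for 5 of the 6 members whose RNA differed between DKO and NTC cells with and without IFNγ under every processing alternative. These 6 are the genes the later results turn on. For the remaining member, *Ndufb9*, no RefSeq window was matched. Each window runs from 250 bases before to 50 bases after the RefSeq start of the gene in GRCm38.p6, on the coding strand, written 5′ to 3′. Capitals mark letters that match 1 of 4 motifs of factors known from respiratory chain promoters, on either strand: the NRF1 core CGCATGCG, the ETS motif of GABPA, CCGGAAG, the YY1 motif AAGATGGC and the ERRA element TGACCTT. The ETS and YY1 motifs can share the letters AAG.
*Ndufs3* (chr2:90904672-90904971, minus strand): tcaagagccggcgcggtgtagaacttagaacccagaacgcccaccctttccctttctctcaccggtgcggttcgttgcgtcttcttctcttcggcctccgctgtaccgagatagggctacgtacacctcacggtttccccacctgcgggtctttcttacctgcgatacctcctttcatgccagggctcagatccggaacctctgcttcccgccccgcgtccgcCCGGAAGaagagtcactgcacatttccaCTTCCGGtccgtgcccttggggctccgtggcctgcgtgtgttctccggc
*Ndufaf5* (chr2:140170396-140170695, plus strand): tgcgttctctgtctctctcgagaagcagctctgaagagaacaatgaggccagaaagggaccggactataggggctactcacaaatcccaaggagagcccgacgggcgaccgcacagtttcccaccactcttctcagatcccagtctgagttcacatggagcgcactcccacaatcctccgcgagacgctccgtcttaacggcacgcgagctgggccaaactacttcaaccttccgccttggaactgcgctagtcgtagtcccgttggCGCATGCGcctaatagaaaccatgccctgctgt
*Atp5e* (chr2:174464052-174464351, minus strand): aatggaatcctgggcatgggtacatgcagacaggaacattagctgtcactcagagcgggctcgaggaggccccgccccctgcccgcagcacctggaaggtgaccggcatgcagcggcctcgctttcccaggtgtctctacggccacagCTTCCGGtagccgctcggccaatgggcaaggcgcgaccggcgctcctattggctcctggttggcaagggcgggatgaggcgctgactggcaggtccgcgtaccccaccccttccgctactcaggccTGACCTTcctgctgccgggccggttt
*Sdha* (chr13:74350191-74350490, minus strand): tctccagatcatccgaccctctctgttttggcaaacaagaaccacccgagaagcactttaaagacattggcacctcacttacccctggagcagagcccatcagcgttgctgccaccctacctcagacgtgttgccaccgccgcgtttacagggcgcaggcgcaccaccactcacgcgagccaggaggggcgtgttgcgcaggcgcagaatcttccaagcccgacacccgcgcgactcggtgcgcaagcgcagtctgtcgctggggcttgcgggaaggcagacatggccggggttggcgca
*Uqcrh* (chr4:116075021-116075320, minus strand): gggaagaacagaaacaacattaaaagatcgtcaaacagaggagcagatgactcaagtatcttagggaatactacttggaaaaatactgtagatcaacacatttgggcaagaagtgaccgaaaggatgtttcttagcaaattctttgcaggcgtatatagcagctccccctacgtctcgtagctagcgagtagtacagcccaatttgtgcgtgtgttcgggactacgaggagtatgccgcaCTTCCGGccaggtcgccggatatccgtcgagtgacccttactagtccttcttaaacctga

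The window of *Ndufs3* held the ETS motif on both strands and that of *Uqcrh* held it on 1 strand. The *Ndufaf5* window held the NRF1 core, the *Atp5e* window the ETS motif and the ERRA element, and the *Sdha* window none of the 4. The ETS motif was thus found both in members lower and in a member higher in DKO cells. RefSeq windows were matched for 73 of the 87 tested members. Among these, 12 (16.4%) held the NRF1 core, against 2.07% of the 27025 genes with a window. The ETS motif was in 17 (23.3%, against 9.93%), the YY1 motif in 11 (15.1%, against 3.19%) and the ERRA element in 8 (11%, against 5.38%). The YY1 motif was found in 7 of 32 complex I and 4 of 16 complex V windows and in none of the 11 complex IV windows. The 27025 genes were not limited to tested genes, while the members were, so the 2 shares do not come from like sets. These counts describe letters in a window and say nothing of binding.

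Many members were among the most abundant RNAs of these cells. The median level of the 87 tested members was 208 TPM, against 20.1 TPM for all tested genes, and 36 of the 94 were among the 500 highest listed genes. Together they made up 2.90% to 3.08% of the listed TPM of a library, while the 13 protein genes of mitochondrial DNA made up 6.86% to 8.9996%. By complex, and again over tested members only (14 of 20 in complex IV), the median went from 177 TPM for complex I and 178 TPM for complex II to 301 TPM for complex III, 379 TPM for complex V and 508 TPM for complex IV. The 6 complex I assembly factors, which build the enzyme but are not part of it, had a median of 20.9 TPM, and each of their means was below that of the lowest complex I subunit, *Ndufb4* at 53.9 TPM.

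**Figure D1:**
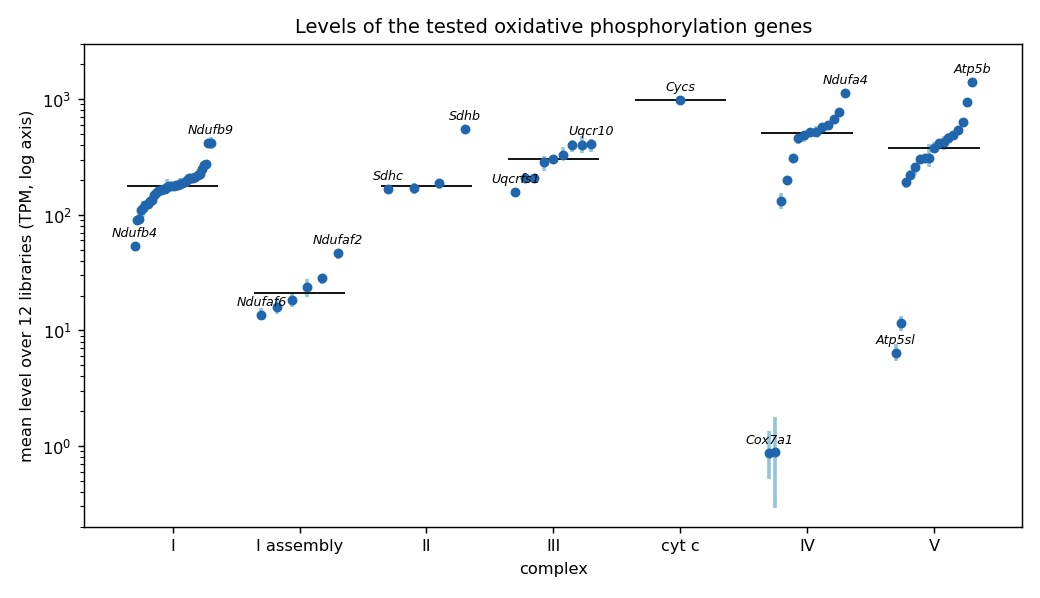
Mean level over 12 libraries of each of the 87 tested members, by complex, in TPM on a log axis. Pale bars run from the lowest to the highest of the 4 condition means, black lines mark the median of each complex, and the lowest and highest members are named; most bars are shorter than their points, and the 2 points of complex IV near 1 TPM are *Cox6a2* and *Cox7a1*.

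Within complexes, the catalytic genes spanned the range. In complex V, *Atp5b*, which encodes the catalytic β subunit, was the highest of all members at 1416 TPM, while *Atp5a1* for the partner α subunit stood at 629 TPM. *Cycs*, somatic cytochrome c, had 988 TPM and *Cyc1*, the cytochrome c1 heme protein of complex III, 301 TPM. In complex II, the iron-sulfur subunit *Sdhb* was the highest at 547 TPM, against 169 TPM for the flavoprotein *Sdha*, 167 TPM for *Sdhc* and 187 TPM for *Sdhd*, the membrane anchors. *Ndufa4*, at 1129 TPM, was the highest complex IV gene and *Ndufb9*, at 420 TPM, the highest complex I gene.

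Where complex IV subunits exist in several forms, the widely expressed form dominated. *Cox4i1*, *Cox6a1*, *Cox6b1*, *Cox7a2* and *Cox8a* had means of 595, 466, 569, 523 and 494 TPM. Their partners *Cox6a2* and *Cox7a1*, forms known from heart and skeletal muscle, averaged 0.885 and 0.870 TPM and were tested. *Cox4i2*, *Cox6b2* and *Ndufa4l2* averaged 0.0367, 0.110 and 0.528 TPM and did not pass the filter, and *Cox7b2*, *Cox8b* and *Cox8c* were listed at 0 in all 12 libraries. The remaining untested member was *Atp5l-ps1*, at 0.5704 to 1.005 TPM. Of the genes for the c subunit of complex V, which forms the rotating ring, *Atp5g3* stood at 941 TPM, *Atp5g2* at 312 TPM and *Atp5g1* at 308 TPM.

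Near-identical copies limit some of these levels. Of the 93 members with a coding sequence, 21 had at least 1 other GENCODE M21 transcript with 95% identity or more over 80% or more of that sequence, and 5 had a copy listed in the table. *Atp5l*, for subunit g of complex V, averaged 190 TPM, below its processed pseudogene *Gm10221*, listed at 371 to 499 TPM. This copy is identical over the aligned part of the coding sequence, which is at least 80% of it. Summed with its copies, *Atp5l* came to 564 ± 13.9 TPM in untreated NTC, 620 ± 30.6 in treated NTC, 637 ± 13.7 in untreated DKO and 646 ± 38.3 in treated DKO cells (mean ± SD, n = 3). *Atp5g2* also has a copy identical over the aligned part, *Gm10175*, listed at 23.8 to 167 TPM. How reads were assigned between these genes and their copies was not tested, and the levels of *Atp5l* and *Atp5g2* are uncertain. Listed copies of *Cycs*, *Cox5b* and *Atp5h* stayed at or under 5.98 TPM. The libraries do not keep strand, and 20 members share exon bases with another gene of at least 1 TPM, for example *Ndufb5* with *Mrpl47* over 616 bases and *Ndufs3* with *Kbtbd4* over 88 bases.

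Over the 4 conditions, the summed RNA of each complex differed by little. Complex I summed to 6755 ± 102 TPM in untreated NTC, 6929 ± 122 in treated NTC, 6502 ± 47.6 in untreated DKO and 6480 ± 98.8 in treated DKO cells (mean ± SD, n = 3). All 6 DKO libraries lay below all 6 NTC libraries. With every library scaled to the same total, however, the values were 6673 ± 45.3, 6692 ± 112, 6653 ± 56.0 and 6647 ± 108 TPM.

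Complex II, the smallest, summed to 1067 ± 7.97, 1119 ± 11.6, 1023 ± 15.0 and 1068 ± 9.01 TPM in the same order, with higher sums in treated than in untreated libraries of each genotype. Complex III summed to 2718 ± 30.9, 2564 ± 135, 2775 ± 73.0 and 2759 ± 42.5 TPM, complex IV to 6317 ± 75.8, 6452 ± 24.5, 6474 ± 87.2 and 6327 ± 169 TPM, and complex V to 7345 ± 45.7, 7405 ± 119, 7293 ± 51.1 and 7186 ± 192 TPM. Libraries of the untreated genotypes overlapped in complexes III and V, and in complex IV NTC reached 6383 TPM and DKO began at 6386 TPM. With the same total, the means in that order were 1054, 1081, 1046 and 1095 TPM for complex II, 2685, 2477, 2839 and 2831 TPM for complex III, 6240, 6231, 6624 and 6489 TPM for complex IV and 7256, 7152, 7462 and 7370 TPM for complex V. The order of the genotypes turned in complex V under both treatments and in complexes II and IV with IFNγ, and so did the order of treated and untreated NTC cells in complexes IV and V. Of the 87 tested members, 54 had a highest condition mean less than 1.2 times their lowest, and the median SD between replicates was 0.0529 on the log2 scale.

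**Figure D2:**
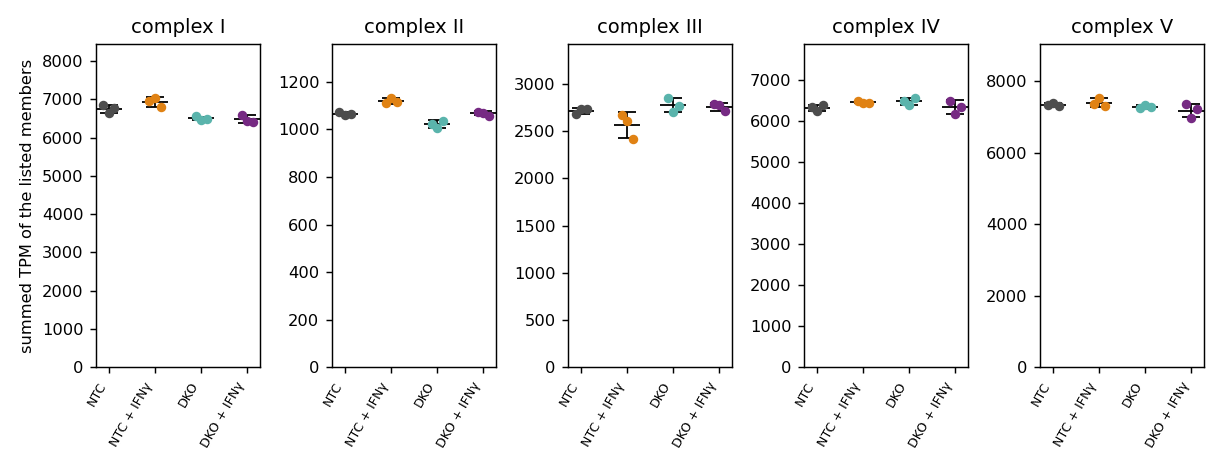
Summed TPM of the listed members of each complex in every library, by condition, with axes that start at 0. Points are libraries, black marks the mean and SD of 3 libraries; complex I is lower in the 6 DKO libraries (6415 to 6594 TPM) than in the 6 NTC libraries (6645 to 7038 TPM), while in complex II the treated libraries lie above the untreated ones of each genotype.

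IFNγ in NTC cells was asked first. *Ndufa5* and *Uqcrb* rose to 1.21 times their untreated means, *Cycs*, cytochrome c, rose by 0.20 on the log2 scale, and *Uqcrq* fell to 0.722 of its untreated mean. In all, 18 of the 87 tested members (20.7%) were called, 12 higher and 6 lower, against 12.1% of all tested genes (7.31% higher and 4.78% lower). Every called member separated the 3 treated from the 3 untreated libraries, which are the same libraries that gave the calls. Uncalled members did so too, among them *Atp5b* (adjusted p = 0.783), and the share over all tested genes was not counted. The members' median log2 difference was 0.0463, beside 0.0186 for all tested genes. It was 0.0176 with the same total, 0.0257 with median-ratio scaling, 0.0141 with the GC and length trend removed and 0.0701 without replicate 1 of untreated NTC cells.

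Of 36 complex I genes, 5 rose and 1 fell. *Ndufa5*, an accessory subunit of the peripheral arm, had 244, 233 and 230 TPM before IFNγ and 283, 287 and 285 TPM after it (log2 difference 0.27, SE 0.0539, adjusted p = 0.0117). It was the only one of the 18 calls that held under all 20 alternatives. *Ndufv2*, an iron-sulfur subunit that takes electrons from NADH, and *Ndufs4*, an accessory subunit close to it, each rose by 0.20 (adjusted p = 0.0155 and 0.0486), *Ndufb5* by 0.18 and *Ndufa9* by 0.15. *Ndufs7*, an iron-sulfur subunit next to the ubiquinone site, fell by 0.30 (adjusted p = 0.0441).

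In complex II, *Sdhd* rose by 0.15 (adjusted p = 0.0416). In complex III, the calls went both ways. *Uqcrb*, a small subunit by the ubiquinone site, was at 333, 306 and 318 TPM before and 392, 401 and 362 TPM after IFNγ (log2 difference 0.27, adjusted p = 0.0387). *Uqcrq*, another small subunit, was at 441, 496 and 493 TPM before and 388, 363 and 282 TPM after it (log2 difference −0.48, SE 0.122, adjusted p = 0.0268). The treated values of *Uqcrq* were spread more widely than the untreated ones, and its untreated DKO values were spread as well, from 354 to 475 TPM.

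*Cycs* had 936, 912 and 920 TPM untreated, all below the 1011, 1117 and 1049 TPM of treated libraries (log2 difference 0.20, adjusted p = 0.0399). In complex IV, *Cox7a2* rose by 0.20 and *Cox5a* by 0.19, while *Cox6a1* fell by 0.31 (adjusted p = 0.0126), *Cox8a* by 0.25 and *Cox4i1* by 0.15. In complex V, *Atp5j*, coupling factor 6, rose by 0.20 and *Atp5h*, the stalk subunit d, by 0.13, while *Atp5d*, the δ subunit of the central stalk, fell by 0.32 (adjusted p = 0.0257). No catalytic gene among *Ndufs1*, *Ndufv1*, *Sdha*, *Sdhb*, *Uqcrc1*, *Uqcrfs1*, *Cyc1*, *Atp5a1* and *Atp5b* was called. Their log2 differences lay between −0.11 (*Uqcrc1*) and 0.14 (*Ndufs1*).

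The direction of these differences moved with the base composition of the transcripts. The GC content of the longest transcript ran from 40.4% to 51.9% in the 12 members that rose, with a median of 47.4%, and from 50.2% to 62.7% in the 6 that fell, with a median of 58.9%. Across the 87 members, the log2 difference in NTC cells and GC content had a Pearson r of −0.54 and a Spearman rho of −0.59, and across the 11563 tested genes with a GC value these were −0.45 and −0.59. These correlations are across genes of the same libraries, which are not independent replicates. With a trend on GC content and transcript length removed from each library, r over the members was −0.02 and 4 members were called, 3 higher and 1 lower. In DKO cells, r over the members was −0.13.

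**Figure D3:**
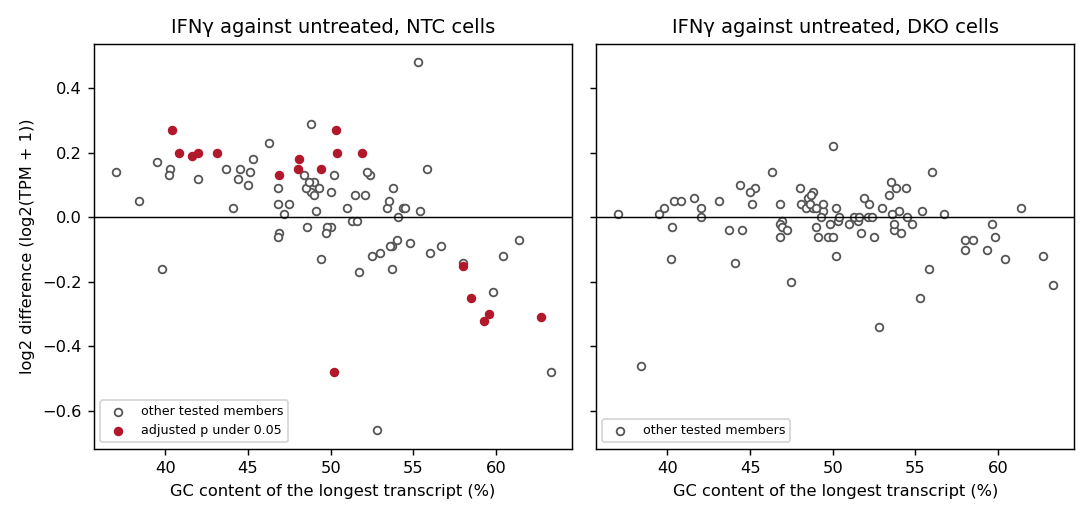
Log2 difference between IFNγ-treated and untreated cells against the GC content of the longest transcript, for the 87 tested members, in NTC cells (left) and DKO cells (right). Filled points have an adjusted p under 0.05: in NTC cells the 12 higher lie at 40.4% to 51.9% GC and the 6 lower at 50.2% to 62.7% GC, and in DKO cells there are none.

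The number called depended on single libraries. Without replicate 1, 2 or 3 of untreated NTC cells it was 9, 1 or 2, without replicate 2 or 3 of treated NTC cells 2 or 4, without replicate 3 of untreated DKO cells 9 and without replicate 1 of treated DKO cells 11. The share of all tested genes called moved as well. In that order it was 8.69%, 3.38%, 2.98%, 2.87%, 2.74%, 8.72% and 8.99%, against 12.1% with all libraries. Scaling to the same total gave 6 higher and 8 lower, median-ratio scaling 6 higher and 9 lower, and the replicate block 7 higher and 6 lower. Calls over all tested genes turned too, from 853 higher of 1411 to 525 of 1164 with the same total and 571 of 1242 with median-ratio scaling.

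IFNγ in DKO cells changed no member past the threshold: 0 of 87 were called by limma, against 0.78% of all tested genes. An unadjusted p under 0.05 was found for 7 of the 87 members and for 1119 of the 11663 tested genes. The smallest adjusted p-values were 0.102 for *Ndufa1*, an accessory subunit of complex I (log2 difference −0.20), 0.336 for *Atp5k* of complex V (−0.16) and 0.388 for *Ndufa13* of complex I (−0.13). Called genes of the NTC response had small values here. *Ndufa5* was at 226, 240 and 233 TPM without and 242, 209 and 245 TPM with IFNγ, *Uqcrb* differed by 0.05 and *Uqcrq* by −0.12, each with overlapping groups. Removing the GC and length trend, or leaving out replicate 1 of untreated NTC cells, each gave 1 call, which was lower.

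The difference between the responses, DKO minus NTC, was tested as an interaction. No member was called, against 0.0343% of all tested genes. An unadjusted p under 0.05 was found for 15 of the 87 members and for 1340 of the 11663 tested genes. The smallest adjusted p-values, all 0.364, belonged to *Atp5k* (−0.31, SE 0.0796), *Ndufa5* (−0.28, SE 0.0762) and *Ndufa1* (−0.24, SE 0.0687). Across the 87 members, these differences and GC content had a Pearson r of 0.49, and across all tested genes of 0.44. That IFNγ gave calls in NTC cells and none in DKO cells is therefore not shown to be a difference between genotypes.

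*Mbnl* DKO and NTC cells were compared without IFNγ next. *Uqcrh* of complex III was 1.27 times as high in DKO cells, while *Ndufs3* and *Ndufb9* of complex I, *Atp5e* of complex V and the assembly factor *Ndufaf3* stood at 0.779, 0.798, 0.787 and 0.699 of their NTC means. Of the 87 tested members 29 (33.3%) were called, 12 higher and 17 lower, against 36.4% of all tested genes (17% higher and 19.4% lower). The members were thus called about as often as other genes, and their median log2 difference was −0.0151, beside −0.00552 for all tested genes.

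With IFNγ in both genotypes, 35 of the 87 (40.2%) were called, 9 higher and 26 lower, against 43.3% of all tested genes (19.5% higher and 23.9% lower). The median log2 difference was −0.0742 over the members and −0.0127 over all tested genes. *Ndufaf5* stood at 0.726, *Ndufs4* at 0.780, *Ndufs3* at 0.783 and *Atp5e* at 0.784 of their NTC means, while *Uqcr11* and *Uqcr10* were 1.30 and 1.28 times as high. The same 18 members were called with and without IFNγ, each in the same direction, 5 higher and 13 lower. The share of all tested genes called in both comparisons was not counted, so the 18 are not read as a trait of the members. Both comparisons used separate libraries, with 1 estimate of the spread.

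The balance of higher and lower calls depended on the scaling between libraries. On the deposited scale 41.4% of the calls without IFNγ and 25.7% of those with it were higher. Scaling to the same total made it 20 higher and 11 lower without IFNγ and 22 higher and 15 lower with it, and removing the GC and length trend made it 19 and 19, and 16 and 23. Calls over all tested genes turned with the same total as well. Without IFNγ they went from 1982 higher of 4247 to 2652 of 4374, and with it from 2271 of 5053 to 3278 of 5024. Median-ratio scaling, which lines up the typical gene, gave 15 members higher and 17 lower, and 13 higher and 25 lower. The members' median log2 difference turned with the same total, to 0.0353 without and 0.0122 with IFNγ, and was 0.0106 and −0.042 with the trend removed. Over all tested genes the median moved with the same total as well, to 0.0388 without and 0.0654 with IFNγ. With IFNγ the members' median thus stayed below that of all tested genes, as it did with median-ratio scaling (−0.0543 against 0.0053). Without IFNγ the members' median was also −0.00495 with median-ratio scaling, and 0.000417 and −0.0235 without replicates 1 and 3 of untreated DKO cells. Leaving out replicates 1, 2 and 3 of untreated NTC cells in turn gave −0.0281, −0.0294 and −0.00553. With IFNγ it was −0.0461 without replicate 2 of treated DKO cells. Called under all 20 alternatives were 14 of the 29 members without IFNγ and 16 of the 35 with it. *Ndufs3*, *Ndufb9*, *Ndufaf5*, *Sdha* and *Atp5e*, all lower, and *Uqcrh*, higher, held in both. The share of all tested genes that held under every alternative was not counted. The count of members called without IFNγ was 19 when replicate 1 of untreated NTC cells was left out.

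**Figure D4:**
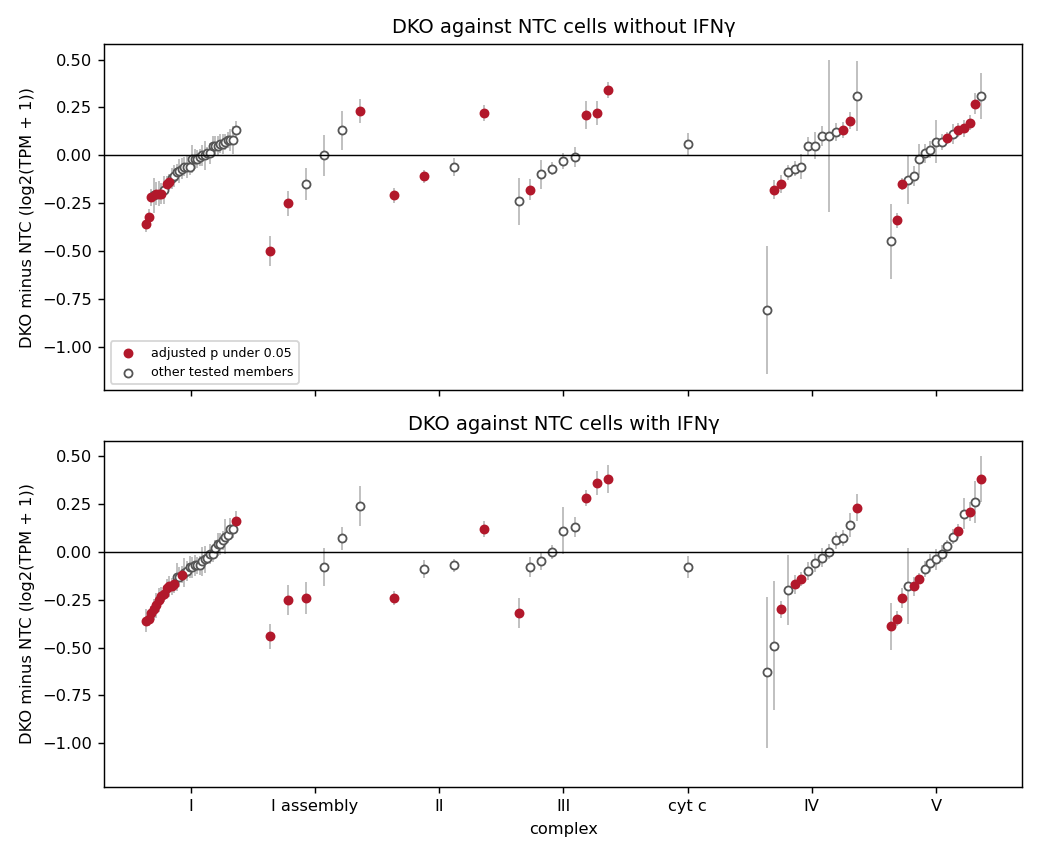
DKO minus NTC log2 difference of each of the 87 tested members with its standard error, by complex, without IFNγ (top) and with it (bottom). Filled points are called (29 at the top, 35 at the bottom); called complex I genes lie below 0 except for 1 with IFNγ, while complex III has 3 called genes above 0 in each panel.

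Called complex I genes were mostly lower on the deposited scale. Without IFNγ 8 of 36 fell and none rose, and with it 13 fell and 1 rose, *Ndufb10*. With the same total, these became 3 higher and 5 lower, and 5 higher and 8 lower. The 8 lower calls without IFNγ were 5 without replicate 1 or 3 of untreated NTC or replicate 2 of untreated DKO cells, and with IFNγ the higher calls were 4 without replicate 3 of treated DKO cells. *Ndufs3*, a core subunit of the arm that carries electrons from NADH to ubiquinone (chr2:90894634-90904827, GENCODE M21 on GRCm38), had 124, 121 and 125 TPM in untreated NTC cells against 97.5, 94.4 and 96.5 TPM in untreated DKO cells (log2 difference −0.36, SE 0.0396, adjusted p = 1.55e-05). With IFNγ, 127, 136 and 132 TPM in NTC stood against 104, 99.6 and 104 TPM in DKO cells (−0.35, adjusted p = 1.56e-05). The NTC and DKO libraries were fully apart under both treatments. The difference of *Ndufs3* ranged from −0.37 to −0.31 without IFNγ over the alternatives; *Ndufs3* has an unlisted pseudogene copy.

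*Ndufb9*, an accessory subunit of the membrane arm (chr15:58933756-58939488), was at 480, 446 and 464 TPM in untreated NTC and 368, 366 and 377 TPM in untreated DKO libraries (log2 difference −0.32, SE 0.0369, adjusted p = 1.89e-05). Treated NTC libraries had 463, 486 and 461 TPM against 380, 369 and 378 TPM in treated DKO libraries (−0.32, adjusted p = 1.75e-05). The 2 differences of *Ndufb9* were alike and no DKO library reached an NTC library.

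Other complex I genes were called more firmly in 1 treatment. *Ndufs4* differed by −0.20 (adjusted p = 0.0176) without IFNγ, a call lost without replicate 1 or 3 of untreated NTC or replicate 1 of untreated DKO cells (largest adjusted p 0.0793), and by −0.36 (adjusted p = 0.000409) with it. *Ndufs6*, which carries a zinc-binding site, differed by −0.20 and −0.28, and *Ndufa10* by −0.15 and −0.22. Without IFNγ both calls were lost with the same total, that of *Ndufs6* also without replicate 1 or 3 of untreated NTC or 2 or 3 of untreated DKO cells (largest adjusted p 0.11), and that of *Ndufa10* without replicate 1 or 2 of untreated NTC or 1 of untreated DKO cells (0.121). *Ndufv1*, the flavin subunit that oxidizes NADH, differed by −0.22 (adjusted p = 0.00155) and −0.12 (adjusted p = 0.0421), and the latter call held in 7 of 20 alternatives and was lost without any 1 of 9 libraries, every library but replicates 1 and 3 of untreated NTC and replicate 2 of treated DKO cells (largest adjusted p 0.569 over all alternatives). *Ndufs1*, the largest iron-sulfur subunit, was called with IFNγ (−0.18, adjusted p = 0.0206) with overlapping groups, in 12 of 20 alternatives, and not without replicate 2 or 3 of treated NTC or 1 or 2 of treated DKO cells. *Ndufb10*, a membrane arm subunit, differed by 0.16 with IFNγ (adjusted p = 0.026; up to 0.126 without replicate 3 of treated NTC or 1 or 2 of treated DKO cells or with only the libraries compared). *Ndufa5*, at −0.02 without IFNγ, was at −0.30 with it (adjusted p = 0.000667), with treated NTC libraries at 283 to 287 TPM and treated DKO libraries at 209 to 245 TPM.

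Among the assembly factors, *Ndufaf3* and *Ndufaf5* fell in both comparisons. *Ndufaf5*, a methyltransferase-like factor that modifies *Ndufs7* protein (chr2:140170649-140203689), was at 18.2, 16.4 and 16.6 TPM in untreated NTC, 14.3, 14 and 14.2 in untreated DKO, 19.1, 19.6 and 18.5 in treated NTC and 15.0, 13.8 and 12.6 TPM in treated DKO libraries. No groups of the 2 genotypes overlapped (log2 difference −0.25, adjusted p = 0.00864, without IFNγ and −0.44, adjusted p = 0.000156, with it). *Ndufaf3* had 29.2, 28.4 and 26.2 TPM in untreated NTC cells against 21.5, 20.2 and 16.8 TPM in untreated DKO cells (−0.50, SE 0.0789, adjusted p = 0.000279) and differed by −0.25 (adjusted p = 0.0203) with it. The latter call was lost without replicate 2 of treated NTC or replicate 1 or 3 of treated DKO cells and with the same total (largest adjusted p 0.11). *Ndufaf4* rose by 0.23 without IFNγ (adjusted p = 0.0111; 0.0534 without replicate 2 of untreated DKO cells). *Ndufaf1* was called with IFNγ (−0.24, adjusted p = 0.033) with overlapping groups and lost without replicate 1 or 2 of treated NTC or 2 of treated DKO cells, and *Ndufaf2*, the highest at 46.4 TPM, was not called.

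Complex II split. *Sdha*, the subunit that oxidizes succinate (chr13:74322254-74350280), was at 178, 177 and 173 TPM in untreated NTC and 149, 153 and 156 TPM in untreated DKO libraries (log2 difference −0.21, SE 0.0369, adjusted p = 0.000723). Under IFNγ, NTC libraries had 186, 185 and 192 TPM and DKO libraries 160, 154 and 163 TPM (−0.24, adjusted p = 0.000217). Each DKO library of *Sdha* was below each NTC library. *Sdhd* went the other way, from 161, 170 and 168 TPM to 193, 191 and 199 TPM without IFNγ (0.22, adjusted p = 0.0013), and by 0.12 (adjusted p = 0.0427) with it. That call held in 10 of 20 alternatives and was lost without any 1 of 8 libraries: replicate 3 of untreated NTC, 1 and 3 of treated NTC, all of untreated DKO and 1 and 2 of treated DKO cells (largest adjusted p 0.177 over all alternatives). *Sdhb* fell by 0.11 without IFNγ (adjusted p = 0.0212; lost without replicate 1 of untreated NTC or 2 of untreated DKO cells and, at 0.187, with the same total) and *Sdhc* was not called.

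Complex III had 3 higher and 1 lower call in each comparison, and without replicate 2 of untreated NTC cells 1 higher and none lower in the untreated comparison. *Uqcrh*, the hinge protein by cytochrome c1 (chr4:116066965-116075071), was at 344, 345 and 363 TPM in untreated NTC and 434, 453 and 449 TPM in untreated DKO libraries (log2 difference 0.34, SE 0.0414, adjusted p = 3.01e-05). Treated cells gave 369, 357 and 359 TPM for NTC and 449, 414 and 456 TPM for DKO (0.28, adjusted p = 0.000145). All 6 DKO libraries of *Uqcrh* were above all 6 NTC libraries.

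*Uqcr10* and *Uqcr11*, 2 of the smallest subunits, rose as well. *Uqcr10* was at 408, 374 and 389 TPM in untreated NTC against 467, 458 and 442 TPM in untreated DKO libraries (0.22, adjusted p = 0.013; 0.0528 without replicate 2 of untreated NTC cells) and differed by 0.36 with IFNγ (adjusted p = 0.000475). *Uqcr11* differed by 0.21 (adjusted p = 0.0434) and 0.38 (adjusted p = 0.00121). Its call without IFNγ held in 13 of 20 alternatives and was lost without any 1 of 6 libraries: every untreated NTC library, replicates 1 and 3 of untreated DKO and replicate 1 of treated DKO cells (largest adjusted p 0.124). Against these stood *Cyc1*, at −0.18 without IFNγ (adjusted p = 0.0162; up to 0.0887 with the same total or without replicate 2 of untreated NTC or 2 of untreated DKO cells), and *Uqcrb*, at −0.32 with it (adjusted p = 0.00452). *Uqcrc1* and the Rieske iron-sulfur protein *Uqcrfs1* were not called, with differences between −0.07 and 0.13.

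In complex IV 4 of 14 tested genes were called in each comparison. *Cox6c*, a small membrane subunit, was at 549, 533 and 559 TPM in untreated NTC and 482, 491 and 511 TPM in untreated DKO libraries (log2 difference −0.15, adjusted p = 0.0216) and differed by −0.30 with IFNγ (adjusted p = 0.000173). The difference without IFNγ was not called with the same total or without 1 of 4 libraries, replicates 1 and 3 of untreated NTC and replicates 1 and 2 of untreated DKO cells (largest adjusted p 0.0804). *Cox7a2l*, known as a factor of supercomplexes, differed by −0.18 without IFNγ (adjusted p = 0.0106, and 0.0502 without replicate 1 of untreated NTC cells). With IFNγ, *Cox7a2l* differed by −0.17 (adjusted p = 0.0136, up to 0.177). The latter call was lost also without replicate 1 of treated NTC or 2 of treated DKO cells. *Cox7b*, at 719, 689 and 739 TPM in NTC, reached 794, 830 and 815 TPM in DKO cells without IFNγ (0.18, adjusted p = 0.00617). *Cox6b1* differed by 0.13 (adjusted p = 0.0315; up to 0.116, lost without replicate 1 or 2 of untreated NTC or any untreated DKO library). With IFNγ, *Cox8a* was higher by 0.23 (adjusted p = 0.0177; up to 0.158, lost also without replicate 2 or 3 of treated NTC or 2 of treated DKO cells) and *Cox5b* fell by 0.14 (adjusted p = 0.00979), a call lost with the same total and with the GC and length trend removed, with or without the replicate block (largest adjusted p 0.278). *Ndufa4* and *Cycs* were not called in either comparison, at 0.12 and −0.06 and at 0.06 and −0.08. With the same total, complex IV had 4 higher and 1 lower in each comparison.

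In complex V, *Atp5e*, the ε subunit of the central stalk (chr2:174461072-174464105), fell in both comparisons. Untreated NTC libraries had 476, 472 and 494 TPM and untreated DKO libraries 371, 391 and 373 TPM (log2 difference −0.34, SE 0.0396, adjusted p = 2.03e-05). With IFNγ, NTC libraries stood at 482, 460 and 451 TPM and DKO libraries at 367, 351 and 374 TPM (−0.35, adjusted p = 1.59e-05). The genotypes did not overlap. Over the 17 complex V genes, 5 were higher and 2 lower without IFNγ and 3 higher and 5 lower with it, which became 8 and 2, and 7 and 3, with the same total. The 5 higher calls without IFNγ were 3 without replicate 1 or 2 of untreated NTC or replicate 3 of untreated DKO cells. The 3 higher calls with IFNγ were 1 without replicate 3 of treated NTC cells and 5 without replicate 2 of untreated DKO cells.

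The catalytic pair differed in opposite directions. *Atp5b*, at 1503, 1491 and 1490 TPM in NTC, had 1379, 1316 and 1333 TPM in DKO cells without IFNγ (−0.15, SE 0.0299, adjusted p = 0.00129) and differed by −0.14 with it (adjusted p = 0.00261; 0.193 with the same total). *Atp5a1* was higher by 0.13 (adjusted p = 0.0106) and by 0.11 (adjusted p = 0.0275). Its call with IFNγ held in 13 of 20 alternatives, and was lost without replicate 1 or 3 of treated NTC or 1 or 2 of treated DKO cells. Without IFNγ, *Atp5k*, subunit e, went from 201, 191 and 212 TPM in NTC up to 244, 238 and 247 TPM in DKO cells (0.27, adjusted p = 0.00196) and *Atp5g3* was higher by 0.17 (adjusted p = 0.00387). With IFNγ, *Atp5k* was at −0.04 (adjusted p = 0.605), *Atp5g1* rose by 0.21 (adjusted p = 0.00489), and *Atp5f1*, of the outer stalk, fell by 0.24 (adjusted p = 0.00262), a call lost once the GC and length trend was removed. The low *Atp5s* and *Atp5sl*, at 11.5 and 6.43 TPM, differed by −0.39 (adjusted p = 0.0215) and 0.38 (adjusted p = 0.0202) with IFNγ. The *Atp5s* call was lost without replicate 2 of treated NTC or 2 of treated DKO cells (largest adjusted p 0.146 over all alternatives), and that of *Atp5sl* without replicate 2 or 3 of treated NTC or 3 of treated DKO cells (0.0891).

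**Figure D5:**
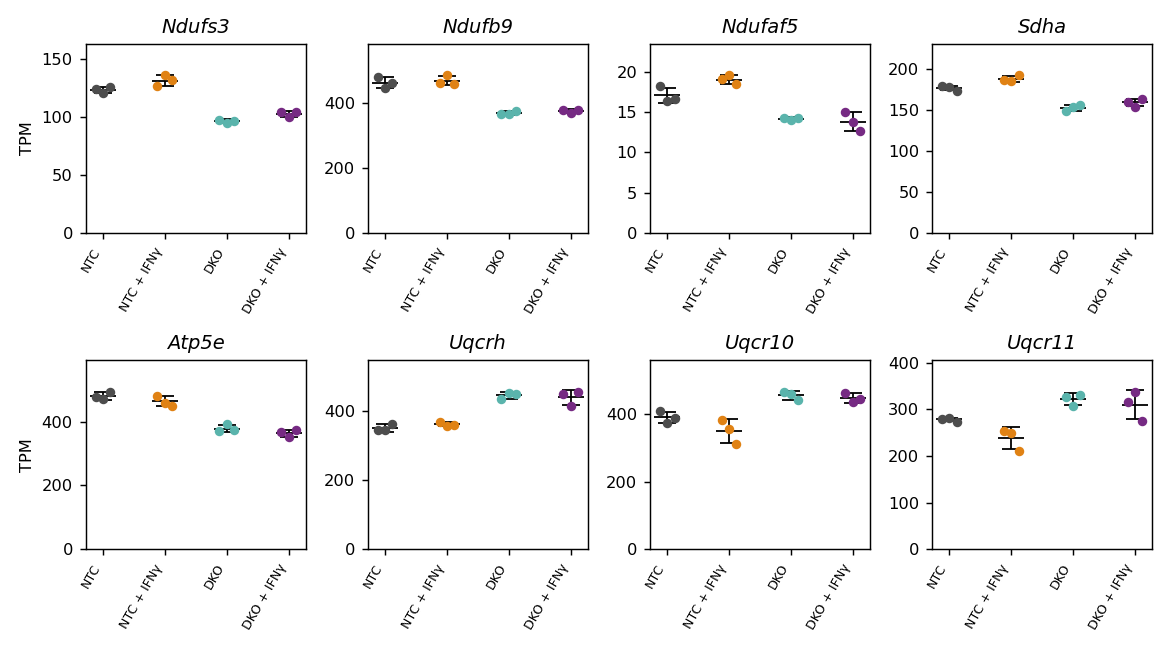
TPM of 8 members in every library by condition, with axes that start at 0; points are libraries and black marks the mean and SD of 3 libraries. *Ndufs3*, *Ndufb9*, *Ndufaf5*, *Sdha* and *Atp5e* are lower and *Uqcrh*, *Uqcr10* and *Uqcr11* higher in DKO cells than in NTC cells of the same treatment, with no overlap.

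The genes of mitochondrial DNA, which complete complexes I, III, IV and V, did not follow a single direction. Of 13 tested, 3 were higher and none lower in DKO cells without IFNγ, with a median log2 difference of 0.104, and none higher and 5 lower with IFNγ, with a median of −0.136. The complex I genes *mt-Nd1*, *mt-Nd5* and *mt-Nd6* differed by 0.31, 0.31 and 0.33 without IFNγ (adjusted p = 0.0209, 0.0099 and 0.0104). With IFNγ, *mt-Atp8* and *mt-Atp6* of complex V differed by −0.50 and −0.39 (adjusted p = 0.00215 and 0.00255). *mt-Nd3* of complex I differed by −0.39 (adjusted p = 0.0086), and the other lower calls belonged to complexes III and IV. Once the GC and length trend was removed, the latter comparison had 3 higher and 2 lower and the former 6 higher and none lower. With IFNγ, the 5 lower were 8 without replicate 3 of treated DKO cells, and without replicate 2, the library with the lowest share of this RNA, there were 2 higher and 3 lower. The median with IFNγ was −0.027 without replicate 2 and −0.24 without replicate 3 of treated DKO cells, and the median without IFNγ was 0.17 and 0.062 without replicates 1 and 2 of untreated NTC cells. None was called with IFNγ in either genotype, though 0 to 4 were higher in NTC cells with 1 library left out, and 4 without replicate 2 of treated DKO cells. Libraries selected for poly(A) measure these RNAs only so far as they carry tails, and *mt-Nd6* lies on the strand opposite to the others, which these libraries do not separate.

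Assembly factors outside the symbol rule, 29 of 41 listed under the symbols used and all tested, had 1 higher and 4 lower in DKO cells without IFNγ and 2 higher and 9 lower with it, or 1 and 1, and 3 and 5, with the same total. Without IFNγ, leaving out any 1 untreated library left 1 or 2 lower. *Coa3*, a complex IV factor, differed by −0.47 (adjusted p = 0.00328) and −0.39 (adjusted p = 0.0084), and *Acad9* of complex I by −0.16 and −0.22. With IFNγ, *Atpaf1*, which assembles complex V, differed by −0.36 (adjusted p = 0.00602), and *Tmem126b*, a complex I factor, by −0.35 (adjusted p = 0.00206). *Tmem126b* rose by 0.34 with IFNγ in NTC cells (adjusted p = 0.0152), where 3 of the 29 rose and 1, *Sco2*, fell by 0.56 (adjusted p = 0.0263). None of the 29 was called there without replicate 2 of treated or replicate 2 or 3 of untreated NTC cells, and 1 rose and none fell without replicate 3 of treated NTC cells.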

How the data were processed

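Per the study, RNA of B16-F10 cells was made into poly(A)-selected, unstranded libraries. The authors ran RSEM 1.2.4, which called Bowtie, on a merged Ensembl, UCSC and MISO annotation, and passed unaligned reads to TopHat on GRCm38. The authors deposited TPM; a scaling between libraries is not given in the sources used here, and TPM keep no depth, so precision rests on the spread between replicates.

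Linear models on log2(TPM + 1) used limma 3.58.1 (R 4.3.3) with a mean for each of 4 conditions over all 12 libraries and a variance trend on expression. The filter asked for 1 TPM in 3 or more libraries. For 5 comparisons, Benjamini-Hochberg adjustment ran over all tested genes (threshold 0.05). Fold changes of genes near 1 TPM are understated on this scale.

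Alternatives were a pseudocount of 0.1 TPM, no filter, a replicate block, only the libraries compared, median-ratio scaling, library totals made equal (the same total), a trend on GC content and transcript length taken out, alone and with the block, and each library left out in turn. GC content, lengths and coordinates came from GENCODE M21 on GRCm38, copies from BLAST 2.17.0, and promoters from RefSeq on GRCm38.p6. Python 3.11.15 with pandas 2.3.3, numpy 2.4.6 and matplotlib 3.10.9 made tables and plots. Simulated data with known changes were used to check the model.

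Members and gene lists were chosen with earlier results of these data known. Genes were named by rule: in each complex and comparison up to 3 called members per direction with the largest log2 difference and groups that do not overlap, the highest member, catalytic subunits, paralogs, untested members, and up to 3 called genes of each other list. Those outside the rule (*Ndufs6*, *Ndufa10*, *Ndufa9*, *Ndufb5*, *Ndufa1*, *Ndufa13*, *Ndufaf1*, *Ndufb4*, *Sdhc*, *Atp5l*, *Gabpb1*, *Acad9*) were chosen after their values were seen. An item that falls under this rule is not reported here. The lists on other assembly factors, the citric acid cycle, regulators, mitochondrial DNA and cell type markers are given in full as counts.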

Additional observations from a re-analysis of the deposited data

How the results depend on the processing

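With IFNγ in NTC cells, 18 members were called, and 8 with no filter on low values, 4 once the trend on GC and length was taken out and 4 when the replicate block was added to that. Leaving out 1 library gave 1 to 25. Over all tested genes the share called was 12.1%, 5.56%, 4.53% and 3.5% in that order, and 2.74% to 17.3% with 1 library left out. In DKO cells the count was 0, and 1 without that trend; leaving out 1 library gave 0 to 1. Between DKO and NTC cells without IFNγ, the count of 29 ran from 19 to 33 with 1 library left out. Without replicate 1 of untreated NTC cells it was 19. With IFNγ, the count of 35 ran from 28 to 39 with 1 library left out and from 30 to 39 otherwise. Over all tested genes, leaving out 1 library gave 29.4% to 38.4% called without IFNγ and 36.3% to 43.8% with it. The difference between responses had 0 calls under every alternative. More genes are tested with no filter, and fewer libraries remain when 1 is left out. The cause of the shifts in these counts was not tested. No called member changed direction under any alternative.

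The deviations of libraries with the same replicate number correlated between −0.179 and 0.182. Libraries with different numbers were not compared, so whether the numbers mark a shared culture or batch was not tested. With the replicate block, the counts were 13, 0, 0, 29 and 36, in the order of IFNγ in NTC, IFNγ in DKO, the difference of responses, and the genotypes untreated and treated. The deposited TPM give no read depth, so the limit that depth sets on the low members cannot be stated.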

Other observations

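The citric acid cycle, which feeds NADH and succinate to complexes I and II, also held differences in both directions. Of 13 genes tested, 4 were higher and 4 lower in DKO cells without IFNγ, and 5 higher and 3 lower with it. *Idh3a* and *Idh3b*, which encode subunits of the same isocitrate dehydrogenase, differed by 0.32 (adjusted p = 7.97e-05) and −0.39 (adjusted p = 1.15e-05) without IFNγ, and by 0.27 (adjusted p = 0.000261) and −0.28 (adjusted p = 0.00017) with it. *Dld*, a subunit shared by several dehydrogenases, differed by −0.42 with IFNγ (adjusted p = 4.01e-05), and *Suclg1*, of succinyl-CoA synthetase, by 0.27 without it (adjusted p = 0.000278). With IFNγ in NTC cells, *Dld* rose by 0.23 (adjusted p = 0.0184) and *Fh1*, fumarase, by 0.17 (adjusted p = 0.016), and no gene of the list was called in DKO cells. With the same total, the counts between genotypes were 6 higher and 3 lower without IFNγ and 6 higher and 2 lower with it. The 5 higher calls with IFNγ were 3 without replicate 1 of treated DKO or of treated NTC cells. The 2 calls with IFNγ in NTC cells were 4 without replicate 2 of treated DKO cells, 1 without replicate 2 of untreated NTC cells and 0 without replicate 2 or 3 of treated or replicate 3 of untreated NTC cells.

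Of 12 regulators of mitochondrial genes, 2 were higher and 3 lower in DKO cells without IFNγ, and 4 higher and 3 lower with it. *Esrra*, a nuclear receptor known to act on respiratory genes, differed by 0.49 (SE 0.116, adjusted p = 0.00482) and 0.73 (SE 0.116, adjusted p = 0.000249). *Gabpb1*, the partner of the ETS factor GABPA, differed by −0.21 (adjusted p = 0.0175) and −0.30 (adjusted p = 0.00211), and *Tfb1m*, a mitochondrial rRNA methyltransferase, by −0.35 (adjusted p = 0.00318) and −0.24 (adjusted p = 0.0221). *Nrf1* differed by −0.22 without IFNγ (adjusted p = 0.00229) and was not called with it. With IFNγ, *Ppargc1b*, at 2.04 to 3.41 TPM, differed by 0.44 (adjusted p = 0.00124) and *Polrmt* by 0.39 (adjusted p = 0.00797), neither called without it. With the same total, the counts with IFNγ were 5 higher and 1 lower, and with the GC and length trend removed 3 and 1. The 3 lower calls with IFNγ were 1 without replicate 2 of treated DKO or replicate 1 of treated NTC cells. Without IFNγ, the 2 higher calls were 1 without any single untreated DKO library or without replicate 1 or 2 of untreated NTC cells, and the lower calls ranged from 2 to 4. None of the 12 was called with IFNγ in either genotype, though 1 was lower in NTC cells without replicate 2 of treated DKO or replicate 1 of treated NTC cells. Their relation to the members was not tested.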
